A study of Mus musculus with 18 samples.

Results

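Transcript levels of 8 regulators of hepatic lipid synthesis were followed in mouse liver: Srebf1 and Insig2 of the SREBP arm, Mlxipl and Mlx of the ChREBP arm, the liver X receptors Nr1h3 and Nr1h2, and the upstream stimulatory factors Usf1 and Usf2. They were chosen by gene symbol, and all 8 were found among the 19057 genes of the table. Liver mRNA of 10-week-old male ICR mice, an outbred strain, was sequenced in 6 groups with 3 libraries each. Con mice received the regular diet, and A10 mice were labelled as given alginate oligosaccharide (AOS), short sugar chains cut from a seaweed polysaccharide, at 10 mg/kg. The A10 labels name no high-fat diet or STZ, so A10 is counted with the regular diet below, although its diet is not stated. HS mice were put on the high-fat diet at 3 weeks of age and were injected once, at 5 weeks, with 85 mg/kg streptozotocin (STZ), a toxin of the insulin-producing cells, so that the model combines a diet with chemical loss of these cells. HS+A10 mice were labelled with the same diet and STZ plus AOS at 10 mg/kg, and how and when AOS was given in the A10 and HS+A10 groups of this experiment is not given in the sources used here. A10-FMT and Con-FMT mice also received the diet and STZ, and between 5 and 7 weeks of age were inoculated with gut content of donor mice. The donors of A10-FMT had been dosed with AOS and those of Con-FMT were control mice, and the content of each donor group had been pooled, so that each recipient group stands for 1 inoculum.

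Lipid synthesis in hepatocytes is set mainly by transcription factors that read insulin, sugar and sterols. SREBP1 and its sister SREBP2 are made as membrane proteins of the endoplasmic reticulum, where SCAP escorts them and the INSIG proteins hold them back; once cut by proteases in the Golgi, their released ends enter the nucleus, SREBP1c driving mainly fatty acid genes and SREBP2 mainly cholesterol genes. ChREBP, encoded by Mlxipl, responds to sugar metabolites and binds DNA only as a dimer with MLX. The liver X receptors LXR alpha (Nr1h3) and LXR beta (Nr1h2) are activated by oxysterols, pair with retinoid X receptors and switch on sterol export genes and Srebf1 itself. USF1 and USF2 bind E-boxes in the promoters of lipogenic genes. In liver, insulin is known to raise Srebf1 mRNA and to lower the liver transcript of Insig2, known as Insig2a.

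On GRCm38 in the GENCODE annotation, all are protein coding, with Srebf1 at chr11:60199089-60222581 (minus strand), Insig2 at chr1:121304353-121332589 (minus), Mlxipl at chr5:135089890-135138382 (plus), Mlx at chr11:101087277-101092207 (plus), Nr1h3 at chr2:91184061-91202834 (minus), Nr1h2 at chr7:44549616-44553951 (minus), Usf1 at chr1:171411313-171419142 (plus) and Usf2 at chr7:30945248-30956803 (minus).

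Binding of the regulators to DNA was not measured. Of their own promoters, 3 are shown because they hold letters that match motifs read by members of the set. Each is the run of 250 bases before a transcript start, 5′ to 3′ on the strand of the gene, from RefSeq on GRCm38.p6, the patch release of the build to which the sample labels refer as mm10. The Srebf1 run lies in an intron at chr11:60210472-60210721, minus strand, before the start of the short SREBP1c transcripts. The first Mlxipl run lies before the gene at chr5:135089640-135089889, plus strand, at the upstream start used by the short ChREBP-beta form. The second lies in an intron at chr5:135106641-135106890, plus strand, at the start of ChREBP-alpha. Capitals mark matches to the LXR repeat unit, the E-box or the sterol-element core, in either orientation.
Srebf1, SREBP1c start: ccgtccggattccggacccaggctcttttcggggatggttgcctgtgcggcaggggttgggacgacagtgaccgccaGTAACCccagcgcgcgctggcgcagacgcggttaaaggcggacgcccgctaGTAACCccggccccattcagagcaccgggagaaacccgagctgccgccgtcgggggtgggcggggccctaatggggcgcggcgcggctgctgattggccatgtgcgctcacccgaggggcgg
Mlxipl, upstream start: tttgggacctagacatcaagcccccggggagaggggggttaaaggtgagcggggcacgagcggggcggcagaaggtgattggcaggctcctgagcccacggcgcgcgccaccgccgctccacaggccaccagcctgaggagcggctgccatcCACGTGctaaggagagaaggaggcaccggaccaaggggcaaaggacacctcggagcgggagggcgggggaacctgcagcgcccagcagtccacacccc
Mlxipl, downstream start: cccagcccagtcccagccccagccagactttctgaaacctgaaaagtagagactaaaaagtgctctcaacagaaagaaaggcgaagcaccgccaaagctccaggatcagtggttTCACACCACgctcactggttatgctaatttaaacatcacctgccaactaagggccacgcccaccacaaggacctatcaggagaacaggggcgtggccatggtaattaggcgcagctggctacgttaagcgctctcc
The Srebf1 run held the letters GGTTAC, which form a repeat unit of the LXR elements of this promoter, at 2 places in the reverse orientation, starting 173 and 122 bases before the transcript start. The upstream Mlxipl run held the E-box CACGTG, the letters bound by USF and MLX dimers, 98 bases before the start. The downstream run held a match to the sterol-element core TCACNCCAC 136 bases before its start. GGTTAC occurred in 5.98%, CACGTG in 6.02% and TCACNCCAC in 1.05% of all 32851 promoter runs of this length, and the first of these was added after the Srebf1 run had been seen. The CCAAT box, the letters of NF-Y binding, was searched as well and is left in lower case, as 33.8% of all runs held it. It lay 30 bases before the start in the Srebf1 run and 173 in the upstream Mlxipl run, both in the reverse orientation. Among the other runs, Mlx held CACGTG 40 bases before its start, while no run of Insig2, Usf1, Nr1h3 or Nr1h2 held any of the 3 motifs marked by capitals. In all, 14 runs of 7 of the 8 genes were searched. The table gives 1 value per gene, so the transcripts from different starts are summed in every level below.

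Each value was deposited as RPKM, the reads of a gene scaled to its length and to all mapped reads of the library, a level per length that allows genes to be set side by side. All libraries had the hepatocyte genes in place, the summed level of 6 markers such as Alb and Apoa1 lying between 32390 and 54852 RPKM. Some libraries stood apart. In Con, replicate 3 had a level between those of replicates 1 and 2 in 98.3% of 575 genes that differed between these, and A10 replicate 3 likewise for 95.9% of 345 genes, against 49.2% to 72.7% in the 4 groups given STZ. The log2 values of Con replicate 3 differed from the mean of its group mates with an SD of 0.077, against 0.55 between those, and those of A10 replicate 3 with an SD of 0.096, against 0.39. The effective n of Con and A10 may therefore be 2 each, and results that touch them were also computed without both libraries. HS replicate 1 stood apart in sterol genes, with Insig1 at 10.18 RPKM against 120.94 and 128.66 in the other HS libraries. Con-FMT replicate 3 held 16596 RPKM of 7 pancreatic enzyme mRNAs, against at most 3.32 in every other library. Red-cell and lymphocyte markers, 4 of 6 testable, summed to 2886 to 10039 RPKM in HS and to 878 to 3618 elsewhere, while 6 Kupffer cell markers summed to 41.7 to 51.0 RPKM in A10-FMT and to 47.0 to 105 elsewhere. Endothelial markers (6) summed to 58.4 to 71.2 RPKM in HS+A10, the group in which Usf2 was called higher, and to 31.9 to 51.6 elsewhere. Stellate cell markers (6) summed to 11.1 to 13.3 RPKM on the regular diet and to 14.7 to 38.4 in the STZ groups, the division along which Insig2, Mlxipl and Usf1 were called. No marker was at 0 in all libraries. Of 5 adipocyte markers, the defining Adipoq and Plin1 were at most 2.44 and 0.31 RPKM, and Car3, which hepatocytes also express, made up nearly all of the sum. Car3 was at 1303.81, 1673.62 and 1436.44 RPKM in HS, below every other library, and at 3728.96, 4035.63 and 3309.42 in A10-FMT against 2734.73, 2231.09 and 1866.95 in Con-FMT. Mlxipl was lower in HS, and Srebf1 higher in A10-FMT, in the same way. The part of these markers in the results was not tested.

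The 8 regulators differed in abundance and in how far they moved. Insig2 and Mlxipl were the most abundant, with means over the 18 libraries of 117 and 100.1 RPKM, above 93.5% and 92.8% of the 10204 genes tested. Srebf1 followed at 46.4, Nr1h3 at 41.3 and Usf2 at 39.8 RPKM, then Mlx at 21.8 and Nr1h2 at 21.1, and Usf1 was lowest at 10.9 RPKM. Between the highest and the lowest group mean, Insig2 spanned 3.18-fold, Srebf1 2.50-fold and Mlxipl 2.11-fold. The other 5 spanned 1.22-fold to 1.30-fold. On the log2(RPKM + 1) scale, the range over groups was 1.65 for Insig2, 1.29 for Srebf1 and 1.07 for Mlxipl, against a median of 0.42 over all genes tested and 0.28 to 0.36 for the other 5 members. The set thus divided into 3 members whose range was wider than that of 90.3% or more of the genes tested and 5 whose range was narrower than the median.

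**Figure D1:**
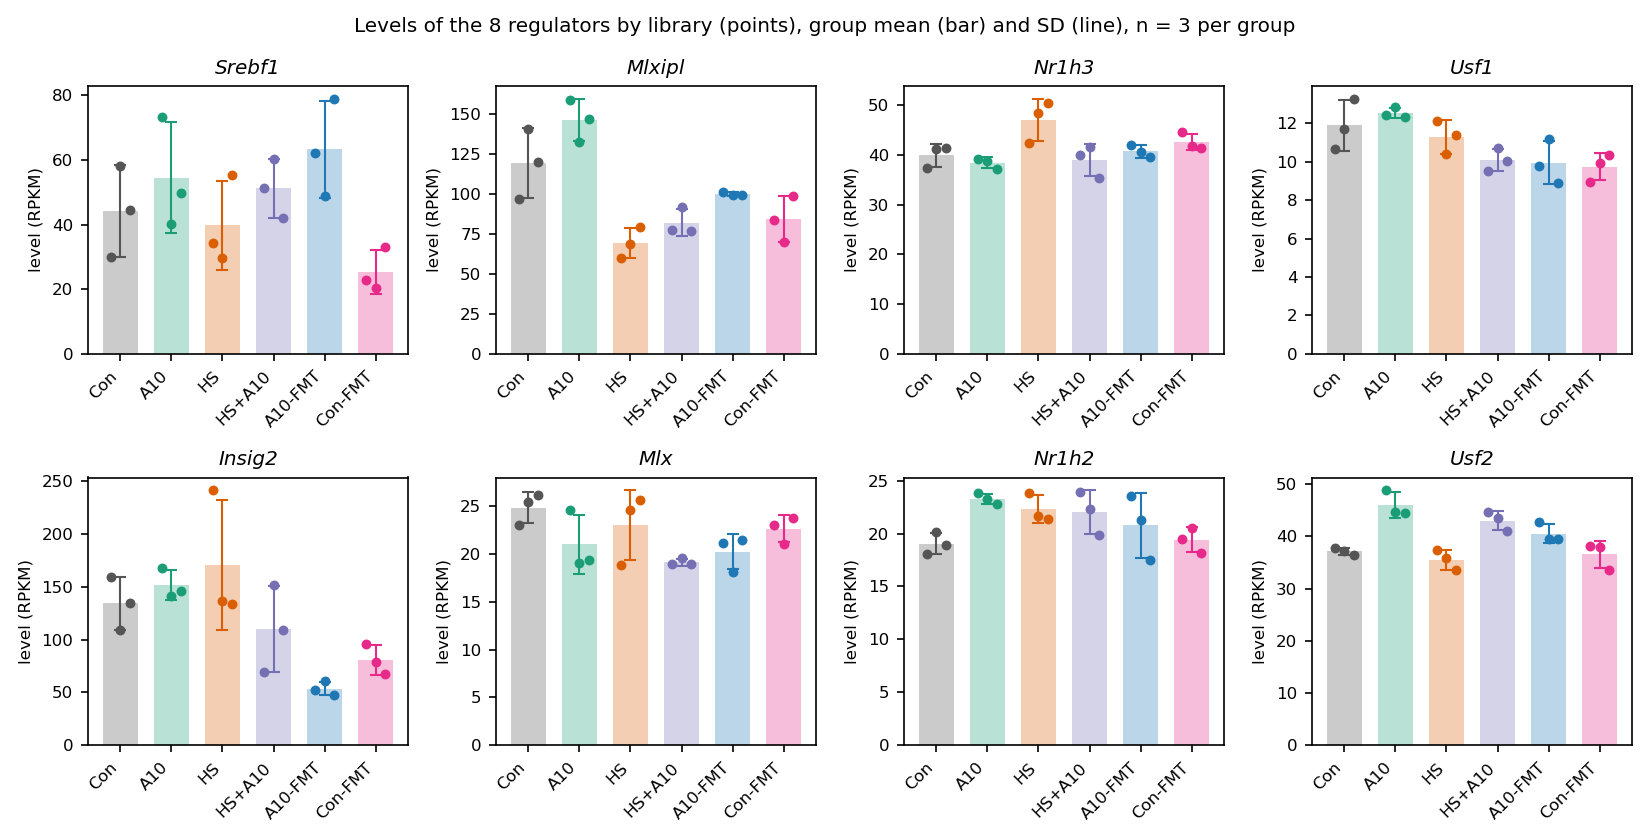
Level of each regulator in RPKM (linear axis from 0) in the 6 groups; points are the 3 libraries of a group, bars the group mean and lines the SD. Srebf1, Insig2 and Mlxipl moved between groups, Insig2 being lowest in A10-FMT (53.7 RPKM) and highest in HS (171 RPKM), while Mlx, Nr1h3, Nr1h2, Usf1 and Usf2 stayed within 1.30-fold.

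Few of the 8 passed the test in any single comparison, although Mlxipl, Insig2, Srebf1, Usf2 and Usf1 each passed in at least 1. Counts below are at a Benjamini-Hochberg adjusted p under 0.05 over all 10204 genes (limma), beside the share of all genes called in the same comparison. For HS against Con, 1 member (Mlxipl, lower) was called, where 17.7% of all genes were called, 15.9% higher and 1.87% lower. For A10-FMT against HS, Insig2 was lower and Mlxipl higher, with 23.1% of all genes called, 21.0% lower and 2.09% higher. For Con-FMT against HS, 1 member (Insig2, lower) was called beside 23.6% of all genes, 19.0% lower and 4.61% higher. For A10-FMT against Con-FMT, 1 member (Srebf1, higher) was called beside 18.8% of all genes, 6.72% higher and 12.0% lower. For HS+A10 against HS it was Usf2, higher, beside 7.32% of all genes, 2.95% higher and 4.37% lower. For A10 against Con no member was called by limma, 0.0686% of all genes being called (0.0490% higher and 0.0196% lower). When the 4 groups on the high-fat diet with STZ were set against the 2 on the regular diet, Insig2, Mlxipl and Usf1 were lower, beside 32.4% of all genes, 20.3% higher and 12.1% lower. These shares of 8 were of the same order as those of all genes, so the counts themselves are no result about the set. The counts of listed genes further below are to be read beside the same shares of all genes. In RPKM the median gene was 0.14 higher in HS than in Con on the log2 scale, 0.16 lower in A10-FMT than in HS and 0.12 lower in Con-FMT than in HS. Scaling each library to the same median removed these shifts, and changes below that size are read against them.

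**Figure D2:**
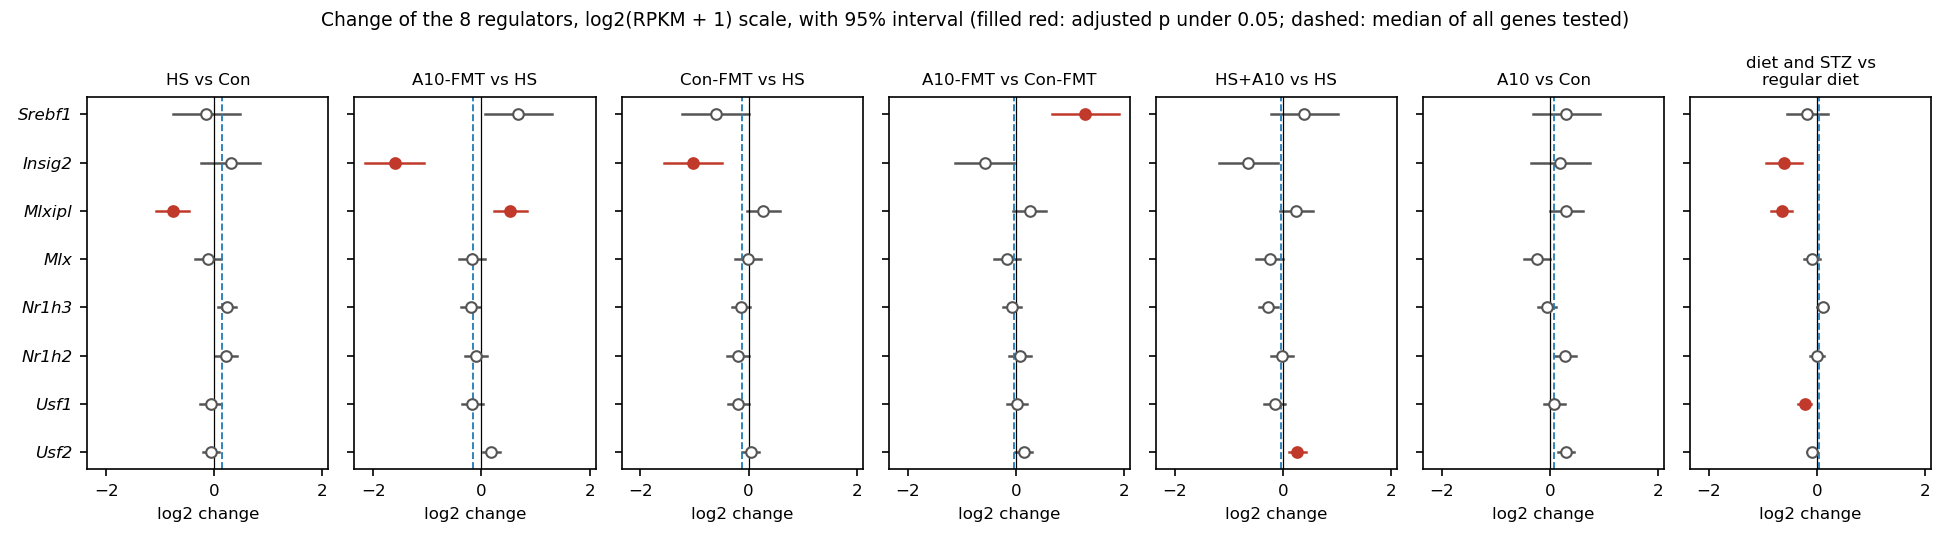
Change of each regulator on the log2(RPKM + 1) scale in 7 comparisons, with its 95% interval from limma; filled red points passed an adjusted p of 0.05, and the dashed line is the median of all genes tested. Insig2 lay at -1.60 for A10-FMT against HS and Srebf1 at 1.29 for A10-FMT against Con-FMT, while the intervals of Mlx included 0 in all comparisons but HS+A10 against HS.

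Srebf1, the gene of SREBP1, separated the recipient groups. It was at 62.12, 48.83 and 78.99 RPKM in the A10-FMT libraries and at 22.72, 20.26 and 33.10 RPKM in those of Con-FMT. Each A10-FMT library was above each Con-FMT library, and the means of 63.3 ± 15.1 and 25.4 ± 6.81 RPKM (SD, n = 3) differed 2.50-fold. In bulk tissue, fewer cells of a type and less RNA per cell cannot be told apart. The log2 change was 1.29 ± 0.29 (SE; adjusted p = 0.0066), and 1.49 without the Con-FMT library that held pancreatic mRNAs (adjusted p = 0.0056). It remained past the threshold in all 28 alternatives, with adjusted p between 0.0029 and 0.029. By their labels both groups shared the diet, STZ and an inoculum and differed in the donors, with 1 pooled inoculum per group. Genes known to rise in fasting, such as Igfbp1 (-3.33), Irs2 (-1.69) and Lpin1 (-2.36), also differed between these groups, and their part in the Srebf1 difference was not tested.

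Neither recipient group could be separated from HS in Srebf1. The HS libraries were at 34.28, 29.57 and 55.46 RPKM, and overlapped both A10-FMT and Con-FMT. A10-FMT was 0.68 ± 0.29 above HS (adjusted p = 0.097) and Con-FMT 0.61 ± 0.29 below it (log2 change -0.61, adjusted p = 0.14). Without HS replicate 3, the highest of its group, the first difference was 0.94 with an adjusted p of 0.047. In the other groups Srebf1 was at 29.86, 58.25 and 44.40 RPKM in Con, 73.49, 40.11 and 49.82 in A10, and 51.29, 60.42 and 42.08 in HS+A10. These overlapped each other and HS, HS against Con being -0.15 ± 0.29 (adjusted p = 0.74), and the spread within Con, A10 and HS was wide (CV of 32.1%, 31.5% and 34.7%). In the order from Con-FMT (25.4) through HS (39.8), Con (44.2), HS+A10 (51.3) and A10 (54.5) to A10-FMT (63.3), no neighbours differed beyond their spread. Con-FMT lay below every library of A10 (A10 against Con-FMT 1.06, adjusted p = 0.012) and of HS+A10 (HS+A10 against Con-FMT 1.00, adjusted p = 0.015). It overlapped Con (Con against Con-FMT 0.76, adjusted p = 0.066). A10-FMT did not pass against Con (adjusted p = 0.25), A10 (0.65) or HS+A10 (0.54).

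Insig2, the gene of an endoplasmic reticulum anchor that holds the SCAP and SREBP complex back, was lower after microbiota transfer than in HS. The HS libraries were at 241.35, 136.66 and 133.84 RPKM, those of A10-FMT at 52.52, 60.45 and 48.00, and those of Con-FMT at 96.12, 79.13 and 67.27. All 6 recipient libraries were below all 3 HS libraries. Against a mean of 171 ± 61.3 RPKM in HS (SD, n = 3), A10-FMT was at 53.7 ± 6.30 and Con-FMT at 80.8 ± 14.5. The log2 change was -1.60 ± 0.26 for A10-FMT (SE; adjusted p = 0.0011) and -1.03 ± 0.26 for Con-FMT (adjusted p = 0.0099).

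HS replicate 1 was the highest library of all 18 for Insig2 and carried part of these differences. Without it, the changes were -1.32 (adjusted p = 0.0029) and -0.75 (adjusted p = 0.046). Without that library and the third libraries of Con and A10, the change for Con-FMT no longer passed (adjusted p = 0.080), whereas that for A10-FMT did (adjusted p = 0.0096). A10-FMT was also below Con-FMT in every library, at 0.664 of its mean, with a log2 change of -0.57 ± 0.26 that did not pass over all genes (adjusted p = 0.13). HS+A10 was spread from 69.73 through 109.24 to 151.33 RPKM and overlapped HS (log2 change -0.64, adjusted p = 0.14). Con (159.54, 109.28 and 134.23) overlapped HS, and A10 (167.56, 141.68 and 145.82) lay within the range of HS. The high-fat diet with STZ by itself therefore showed no called change of Insig2, HS against Con being 0.30 ± 0.26 (adjusted p = 0.42). The lower level of the 4 diet and STZ groups together (log2 change -0.61, adjusted p = 0.0082) came with means of 80.8 and 53.7 RPKM in the recipient groups, 110.1 in HS+A10 and 171 in HS.

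The other genes of SREBP processing were set beside these 2. Insig1, the sister of Insig2, was at 142.02, 210.30 and 171.75 RPKM in Con and at 172.61, 154.72 and 169.19 in A10. In HS it was at 120.94 and 128.66 RPKM in replicates 2 and 3 but at 10.18 in replicate 1. It ran from 14.92 to 34.02 RPKM in HS+A10, from 29.06 to 66.47 in A10-FMT and from 24.25 to 48.11 in Con-FMT. The 4 diet and STZ groups together were 2.16 lower than the regular diet groups on the log2 scale (log2 change -2.16, adjusted p = 0.0010). Srebf2, the gene of SREBP2, followed the same division, at 11.80 to 14.15 RPKM in the 6 regular diet libraries, 14.80 and 12.31 in HS replicates 2 and 3, 5.43 in HS replicate 1, and 4.05 to 6.95 in all 9 libraries of HS+A10, A10-FMT and Con-FMT (diet and STZ against regular diet -0.85, adjusted p = 0.00040). Scap, the escort, was lower in Con-FMT than in HS (log2 change -0.47, adjusted p = 0.0065) and in A10-FMT its level was 0.30 above that of Con-FMT, which passed after median scaling (0.37, adjusted p = 0.011) but not before it (adjusted p = 0.067).

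**Figure D3:**
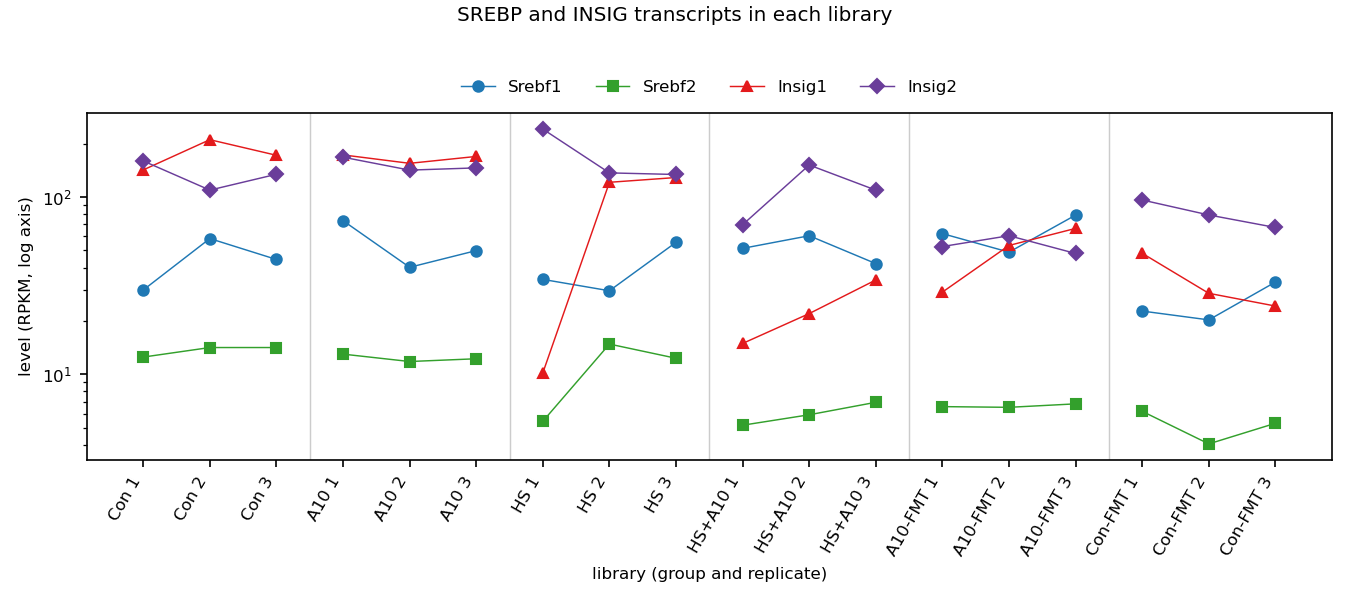
Level of Srebf1, Srebf2, Insig1 and Insig2 in RPKM (log axis) in each of the 18 libraries, joined within a group. In HS replicate 1, Insig1 (10.18 RPKM) was below every library of the other STZ groups, Srebf2 (5.43) was within their range and Insig2 (241.35) was highest. HS replicates 2 and 3 lay nearer to the regular diet libraries.

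Of the 8 genes of SREBP processing, 2 were lower in the diet and STZ groups (Insig1 and Srebf2), 3 in Con-FMT against HS (Srebf2, Scap and Fbxw7, whose product marks nuclear SREBP for degradation) and 1 in A10-FMT against HS (Mbtps2, a protease that cuts SREBP, -0.32, adjusted p = 0.044, and -0.20 with an adjusted p of 0.18 after median scaling). Of all genes, 12.1% were called lower in the first of these comparisons, 19.0% in the second and 21.0% in the third. None of the genes of SREBP processing was called in the other comparisons. Without HS replicate 1, 4 were lower in A10-FMT, 4 in Con-FMT and 2 in HS+A10, each against HS. In A10-FMT against HS, Srebf2 then had a log2 change of -0.93 (adjusted p = 0.00091), against -0.54 (adjusted p = 0.10) with it.

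Target genes of SREBP1 were far below the regular diet level while the Srebf1 transcript was not. Of 18 SREBP1 targets tested, 15 were lower and 2 higher in the diet and STZ groups, with a median log2 change of -0.95 beside 0.04 over all genes, and Srebf1 itself was at -0.18 (adjusted p = 0.46). Scd1, a fatty acid desaturase, had the largest difference, at 676.24, 815.21 and 740.04 RPKM in Con and at 17.43, 38.38 and 73.35 in HS (log2 change for the pooled comparison -5.41, adjusted p = 6.02e-07). Fasn, the fatty acid synthase (-2.33, adjusted p = 0.00023), Acss2, an acetyl-CoA synthetase (-2.25, adjusted p = 4.37e-06), and Acacb, an acetyl-CoA carboxylase (-2.16, adjusted p = 1.70e-06), fell as well. Lpin1 (1.38) and Fads2 (0.46) rose. For HS against Con, 7 were lower and 1 higher, but only 1 was lower without the third libraries of Con and A10 and HS replicate 1.

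Between the recipient groups, where Srebf1 differed 2.50-fold, 2 of the 18 SREBP1 targets were called higher and 1 lower. Of all genes, 6.72% were called higher and 12.0% lower there. For A10-FMT against Con-FMT, Mid1ip1 (1.30, adjusted p = 0.037) and Gpam, the first enzyme of triglyceride synthesis (0.71, adjusted p = 0.015), were higher and Lpin1 was lower (-2.36, adjusted p = 0.0023). Of the 18, 15 lay above 0 and 3 below, with a median of 0.32 beside -0.03 over all genes. Gpam was at 26.12, 21.34 and 27.33 RPKM in A10-FMT and at 17.61, 12.26 and 15.04 in Con-FMT, and the libraries did not overlap. Lpin1, a phosphatidate phosphatase that is also induced by fasting, was at 114.12, 118.14 and 108.43 RPKM in Con-FMT and between 3.11 and 37.24 in the other 15 libraries. Against HS, A10-FMT had 2 of the 18 higher (Thrsp, 3.93, and Lpin1, 1.39) and 2 lower (Acacb, -1.08, and Elovl5, -0.93), both lower calls being lost after median scaling (adjusted p = 0.057 and 0.093). Thrsp, a lipogenic nuclear protein, was at 337.95, 356.98 and 704.16 RPKM in A10-FMT, above the 6.19, 49.96 and 65.22 of HS. For Con-FMT against HS, 2 were higher and 5 lower, with 3 lower after median scaling and 9 without HS replicate 1. For HS+A10 against HS, 0 of 18 passed in limma, and 8 were lower without HS replicate 1.

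Of the 24 SREBP2 targets, the cholesterol synthesis and uptake genes, 23 were lower in the diet and STZ groups (median log2 change -1.78), led by Sqle (-3.02) and Fdps (-2.90). Their calls against HS depended on 1 library. With all libraries, 0 of 24 passed in limma for A10-FMT against HS and for HS+A10 against HS, and 6 were lower in Con-FMT (3 after median scaling). Without HS replicate 1, 19, 22 and 22 were lower in these comparisons. For HS against Con, 4 were lower with all libraries, 1 without HS replicate 1 and 0 without the third libraries of Con and A10. In these counts, as in Insig1 and Srebf2, HS replicate 1 went with the other 3 STZ groups and HS replicates 2 and 3 with the regular diet groups.

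Mlxipl, the gene of ChREBP, was lower in HS than in Con. The Con libraries were at 97.03, 140.70 and 120.02 RPKM and those of HS at 59.96, 68.56 and 79.05, with no overlap. The means were 119 ± 21.8 and 69.2 ± 9.56 RPKM (SD, n = 3), a log2 change of -0.77 ± 0.14 (SE; adjusted p = 0.0033), in a comparison in which 1.87% of all genes were called lower. It kept its direction and passed without the third libraries of Con and A10 (-0.76, adjusted p = 0.026), but not when HS replicate 1 was left out as well (-0.66, adjusted p = 0.062). Median scaling made the difference larger (-0.95, adjusted p = 0.00041).

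In A10-FMT, Mlxipl was at 101.41, 99.53 and 99.28 RPKM, above every HS library. The log2 change against HS was 0.53 ± 0.14 (adjusted p = 0.017), and 0.44 without HS replicate 1, the lowest of its group, at an adjusted p of 0.055. A10-FMT overlapped Con, whose mean was higher (Con against A10-FMT 0.23, adjusted p = 0.31). Con-FMT was at 83.70, 69.96 and 98.89 RPKM and overlapped HS (0.27, adjusted p = 0.18, and 0.39 with an adjusted p of 0.037 after median scaling). A10-FMT was above Con-FMT in every library, by 0.26 ± 0.14, which did not pass (adjusted p = 0.23). HS+A10 was at 77.40, 91.57 and 77.03 RPKM and overlapped HS (0.25, adjusted p = 0.31).

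The highest level of Mlxipl was in A10, at 159.08, 132.42 and 147.15 RPKM, which overlapped Con (0.30, adjusted p = 0.36). All 12 libraries of the diet and STZ groups lay between 59.96 and 101.41 RPKM and 5 of the 6 regular diet libraries at or above 120.02, the exception being Con replicate 1 at 97.03. The pooled log2 change was -0.66 ± 0.09 (adjusted p = 6.42e-05), and -0.62 without the 3 libraries named above (adjusted p = 0.0022). In the order HS, HS+A10, Con-FMT, A10-FMT, Con and A10, no neighbours passed the test, and only Con-FMT and A10-FMT did not overlap.

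Mlx, the partner without which ChREBP cannot bind DNA, was called in none of the 7 comparisons of the design. Its libraries lay between 18.12 and 26.16 RPKM, with group means from 19.1 ± 0.36 in HS+A10 to 24.9 ± 1.64 in Con (SD, n = 3). These extremes differed by 0.36 on the log2 scale (Con against HS+A10, adjusted p = 0.026, and 0.0020 after median scaling), but not past the threshold without the third libraries of Con and A10 (adjusted p = 0.10). HS, at 18.91, 24.64 and 25.63 RPKM, overlapped every group. Without HS replicate 1, the lowest of the 3, Mlx was lower in HS+A10 than in HS (log2 change -0.38, adjusted p = 0.035), against -0.25 with it (adjusted p = 0.20). Mlx shares 385 exonic bases (19.3%) with Psmc3ip on the other strand, and whether reads were counted by strand is not given in the sources used here.

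Among 7 genes of the wider MLX and MAX network, 4 were lower in A10-FMT than in Con-FMT, beside 12.0% of all genes. They were Mnt (-0.65, adjusted p = 0.0083), Max (-0.55, adjusted p = 0.0042), Mga (-0.36, adjusted p = 0.036) and Mlxip, the gene of the ChREBP relative MondoA (-0.32, adjusted p = 0.022). Max, the common dimer partner of MYC and MNT, was at 18.68, 17.52 and 16.88 RPKM in Con-FMT, above the 8.99 to 15.36 of every other group. It was also higher in HS than in Con (0.38, adjusted p = 0.034), but no gene of this list passed in that comparison after median scaling. Mnt, Max and Mga were higher in Con-FMT than in HS (0.63, 0.46 and 0.37), and Mlxip was lower in A10-FMT than in HS (-0.31, adjusted p = 0.023), which did not pass after median scaling (-0.22, adjusted p = 0.093).

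Some ChREBP target genes were higher in HS than in Con, where Mlxipl was lower. Of 15 tested, 4 were higher and 0 lower (limma) for HS against Con, beside 15.9% and 1.87% of all genes. Their median was 0.49, beside 0.14 over all genes. Those higher included Fgf21, a liver hormone (1.61), Gpd1 (0.51) and Tm6sf2 (0.49). None of the 15 was called after median scaling, and 1 was called without the third libraries of Con and A10. In the pooled comparison 4 were higher (among them Rgs16, Slc2a2 and Gpd1) and 3 lower (Fasn, Acly and Tm6sf2), of which Fasn and Acly are also SREBP1 targets. Of all genes, 20.3% were called higher and 12.1% lower there. Without the third libraries of Con and A10, 2 were higher. For A10-FMT against HS, Rgs16 (3.35, adjusted p = 0.0091) and Pklr, the liver pyruvate kinase (1.22, adjusted p = 0.015), were higher and Tm6sf2 was lower (-0.78), with 4 higher after median scaling and 1 without HS replicate 1. Pklr was at 76.39, 64.47 and 93.06 RPKM in A10-FMT and at 21.61, 45.51 and 35.09 in HS.

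**Figure D4:**
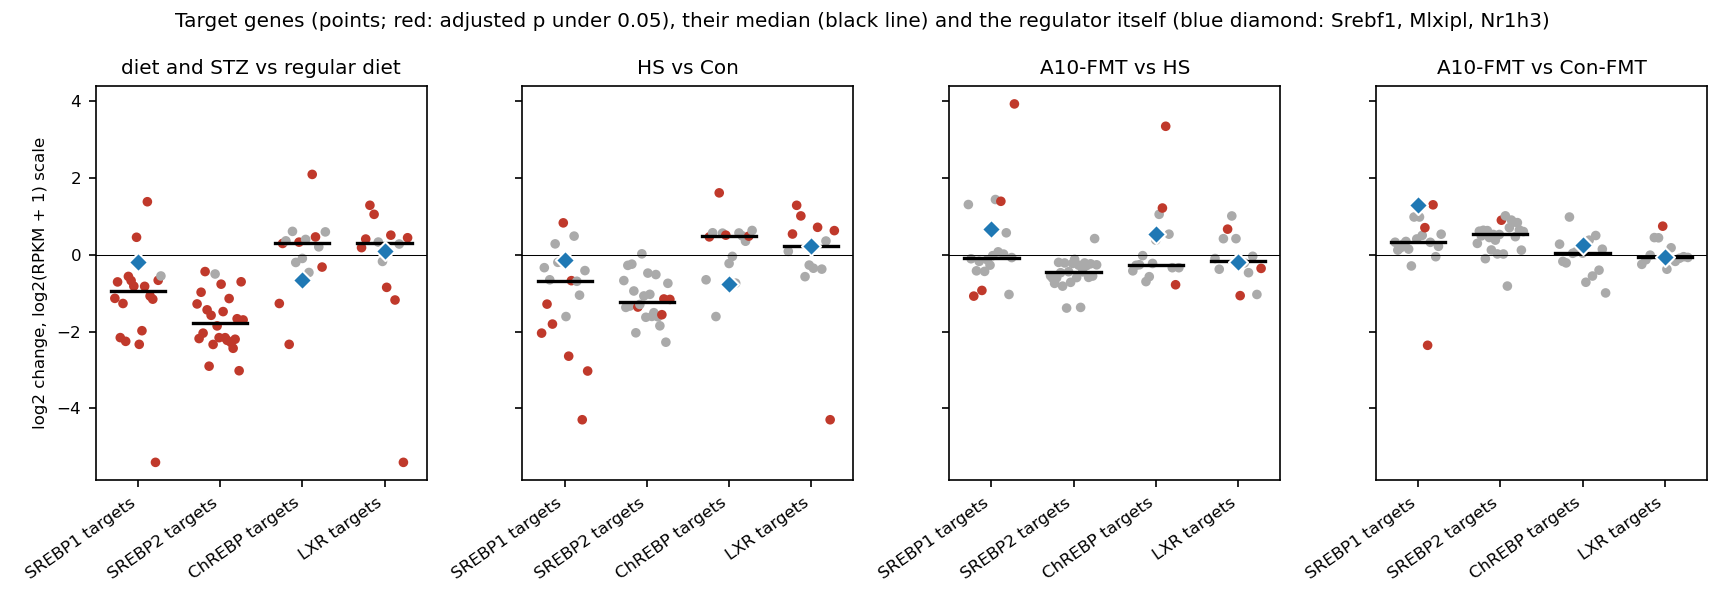
Log2 change, log2(RPKM + 1) scale, of the target genes of SREBP1, SREBP2, ChREBP and LXR (points; red, adjusted p under 0.05), their median (black line) and the regulator's own transcript (blue diamond: Srebf1, Mlxipl, Nr1h3) in 4 comparisons. SREBP1 and SREBP2 targets lay low in the diet and STZ groups (medians -0.95 and -1.78) while Srebf1 was at -0.18, and Mlxipl (-0.66) lay below the median of its targets (0.29).

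Nr1h3, the gene of LXR alpha, was highest in HS, at 42.32, 48.43 and 50.45 RPKM. The Con libraries were at 37.30, 41.22 and 41.33, those of HS+A10 at 39.92, 41.68 and 35.32, and those of A10-FMT at 42.07, 40.49 and 39.58, all below each HS library. The log2 change of HS against Con was 0.23 ± 0.08 (SE; adjusted p = 0.057), that of HS+A10 against HS -0.27 ± 0.08 (adjusted p = 0.055) and that of A10-FMT against HS -0.20 ± 0.08 (adjusted p = 0.077). None of these 3 passed with all libraries. All 3 passed without HS replicate 1, at 0.30 (adjusted p = 0.025), -0.34 (adjusted p = 0.015) and -0.27 (adjusted p = 0.026), and the first also without HS+A10 replicate 3 (adjusted p = 0.047). After median scaling, however, HS was 0.05 above Con (adjusted p = 0.74) and A10-FMT 0.01 below HS (log2 change -0.01, adjusted p = 0.94), so these 2 differences were mostly gone once the shift of the median gene was taken out. That of HS+A10 was -0.22 (adjusted p = 0.062). Con-FMT, at 44.51, 41.78 and 41.45 RPKM, overlapped HS (-0.14, adjusted p = 0.22), and A10, at 39.26, 38.85 and 37.14, was below every HS library. A10 against HS passed with all libraries (-0.28, adjusted p = 0.033), but not without the third libraries of Con and A10 (adjusted p = 0.14) or after median scaling (adjusted p = 0.12).

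Nr1h2, the gene of LXR beta, was called in none of the 7 comparisons. It was at 18.11, 20.11 and 18.95 RPKM in Con and at 23.79, 23.25 and 22.82 in A10, without overlap, for a log2 change of 0.28 ± 0.10 that did not pass over all genes (adjusted p = 0.25). HS was at 23.81, 21.65 and 21.40 RPKM, also above Con (0.22, adjusted p = 0.13, and 0.04 after median scaling). Con-FMT, at 19.53, 20.53 and 18.18, lay below HS (-0.19, adjusted p = 0.17), and the pooled change over diet and STZ was -0.0018 ± 0.059 (adjusted p = 0.98), with a 95% interval from -0.13 to 0.12.

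Rxra, the gene of their main dimer partner, was at 60.65 to 65.51 RPKM in Con and at 80.61 to 81.96 in HS (log2 change 0.35, adjusted p = 0.0052), a call lost after median scaling (0.17, adjusted p = 0.15). It was higher in the diet and STZ groups together (0.32, adjusted p = 7.57e-05, and 0.26 with an adjusted p of 0.00030 after median scaling). It was the only one of 10 LXR partners and cofactors called in either comparison. Rxrg, a minor partner, was lower in Con-FMT than in HS (-1.10, adjusted p = 0.0013) and was raised in A10-FMT relative to Con-FMT (0.72, adjusted p = 0.018). The corepressor gene Ncor1 was lower in A10-FMT (-0.33) and Con-FMT (-0.29) than in HS. Nrip1 was lower in Con-FMT than in HS (-0.42), and Rxrb lower in A10-FMT than in Con-FMT (-0.27). After median scaling none of these calls of Ncor1, Nrip1 and Rxrb passed (adjusted p = 0.23 and 0.11 for Ncor1, 0.076 for Nrip1 and 0.11 for Rxrb), while both of Rxrg did.

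Of 12 LXR targets tested, 6 were higher and 3 lower in the diet and STZ groups, beside 20.3% and 12.1% of all genes. Abcg5 and Abcg8, which together form the sterol exporter of the bile canaliculus, rose by 1.29 (adjusted p = 3.00e-05) and 1.05 (adjusted p = 5.41e-05), and Mylip, which marks the LDL receptor for degradation, rose by 0.51. Scd1 (-5.41), Pltp (-1.18) and Lpl (-0.85), which are also under other control, fell. Abcg5 was at 14.65 to 17.66 RPKM in Con and at 74.48, 28.90 and 32.18 in HS, the highest value being again that of replicate 1. For HS against Con 5 were higher and 1 lower (Scd1), with 2 higher without the third libraries of Con and A10 and HS replicate 1. Against HS, HS+A10 had Abcg8 (0.99, adjusted p = 0.019) and Lpcat3, an enzyme of phospholipid remodelling (0.83, adjusted p = 0.0078), higher, and 4 were higher after median scaling or without HS replicate 1. Against Con-FMT, A10-FMT also had Lpcat3 higher (0.74, adjusted p = 0.0043), at 45.06, 46.72 and 38.30 against 31.29, 24.20 and 21.58 RPKM.

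Usf1 was low and even, between 8.91 and 13.28 RPKM in all libraries. It was at 10.67, 11.72 and 13.28 RPKM in Con and 12.43, 12.84 and 12.35 in A10, and its group means in the STZ groups were 11.3 in HS, 10.1 in HS+A10, 9.75 in Con-FMT and 9.95 in A10-FMT. The pooled change was -0.23 ± 0.06 (SE; adjusted p = 0.0053), with overlap between the sets of libraries, and -0.21 without the 3 libraries named above (adjusted p = 0.036). No single comparison with HS or between the recipients passed, HS against Con being -0.07 (adjusted p = 0.63). A transcript of the neighbouring gene Tstd1 overlaps 7.13% of the exonic bases of Usf1 on the same strand.

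Usf2 was higher in HS+A10 than in HS. It was at 44.58, 43.50 and 40.98 RPKM in HS+A10 and at 37.32, 35.78 and 33.48 in HS, without overlap, for a log2 change of 0.27 ± 0.07 (SE; adjusted p = 0.035). The call was lost when any of 5 libraries was left out: Con replicate 3 (adjusted p = 0.051), HS replicate 2 (0.096) or 3 (0.14), or HS+A10 replicate 1 (0.13) or 2 (0.089), with log2 changes between 0.23 and 0.31 over all libraries left out. It was also lost without the third libraries of Con and A10 (adjusted p = 0.072). A10 was above Con to a like extent, at 48.83, 44.59 and 44.39 against 37.82, 37.21 and 36.51 RPKM (0.30 ± 0.07, adjusted p = 0.13), without overlap. A10-FMT, at 42.66, 39.45 and 39.47 RPKM, was above HS in every library (0.19, adjusted p = 0.070), and passed after median scaling (0.37, adjusted p = 0.0065) and without Con-FMT replicate 3 (adjusted p = 0.0499). Con-FMT was at 38.07, 38.02 and 33.54 RPKM and overlapped HS (0.04, adjusted p = 0.73). A10-FMT against Con-FMT was 0.15 (adjusted p = 0.17) and passed after median scaling (0.22, adjusted p = 0.043). The pooled change over diet and STZ was -0.09 (adjusted p = 0.13), and it passed after median scaling (-0.15, adjusted p = 0.022) and quantile normalization (-0.12, adjusted p = 0.0497).

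Whether AOS acted differently on the regular diet and on the high-fat diet with STZ was tested as an interaction (HS+A10 minus HS, less A10 minus Con). No member passed in limma, the smallest adjusted p being 0.36 for Insig2 (log2 difference -0.83), and 0.00980% of all genes were called. For Usf2 the effects were 0.27 on the diet with STZ and 0.30 on the regular diet. The 1 gene called over the table was not a member but the clock gene Dbp (3.92, adjusted p = 0.0098). It did not pass without the third libraries of Con and A10. Leaving out HS replicate 1 instead, 118 of the 10204 genes were called for this interaction, with no member among them.

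Other genes that read insulin and the time of day moved in the same comparisons and are given beside the regulators. Between A10-FMT and Con-FMT, 5 of 10 insulin and fasting genes lay above 0 and 5 below. Their median change was -0.03, as over all genes. In limma 4 were lower, beside 12.0% of all genes, and none was higher, with 1 higher after median scaling. Those lower were Igfbp1 (-3.33, adjusted p = 0.00028), Irs2 (-1.69, adjusted p = 0.00016), Pck1, the gene of a gluconeogenic enzyme (-0.68, adjusted p = 0.0023), and Foxo1 (-0.30, adjusted p = 0.012). Insulin is known to lower these genes or to inactivate their product. Irs2 was at 1.43, 1.58 and 1.52 RPKM in A10-FMT and at 7.06, 5.13 and 9.67 in Con-FMT. Relative to HS, 1 of the 10 was higher and 3 lower in A10-FMT (1 and 1 after median scaling), and 3 were higher and 1 lower in Con-FMT. Foxo1 was higher than in HS in both recipient groups (0.29 and 0.59). Pck1 was higher in HS than in Con (1.72, adjusted p = 3.03e-06). It was also higher in A10 than in Con (0.82, adjusted p = 0.025), a call lost after median scaling. Against HS, of 15 clock genes, 9 rose and 4 fell in HS+A10, 9 rose and 4 fell in A10-FMT, and 9 rose and 2 fell in Con-FMT, while 2 were higher and 1 lower for HS against Con and 1 in each direction between the recipient groups. In the pooled comparison of the diet and STZ groups with the regular diet groups, 11 of the 15 were higher and 4 lower. For A10 against Con 2 were higher, Nr1d1 (2.45) and Nr1d2 (1.39), and 0 without the third libraries of Con and A10. The hour of collection is not given in the sources used here, and its part in any of the comparisons was not tested.

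The pattern over all 18 libraries was finally compared with that of every other gene tested, as Pearson correlations of log2(RPKM + 1), given as a description because libraries of 1 group share their treatment. Insig2 was closest to Clpx (r = 0.937), Mpzl1 (0.919) and Cd9 (0.918), and Mlxipl to Tlcd1 (0.948) and Ces1e (0.892), among others. Usf1 was closest to Cep44 (0.940), Mapre2 (0.876) and Prkd2 (0.863). Srebf1 had no gene above 0.85, Sertad2 (0.847), Vwce (0.846) and Dclk3 (0.846) coming nearest. For Mlx the nearest was Noc2l (0.839), for Nr1h3 Srp14 (0.864), for Nr1h2 Mrps35 (0.875) and for Usf2 Mospd3 (0.853). Within the set, the highest correlations were those of Insig2 with Usf1 (0.662), Nr1h2 with Usf2 (0.587), Mlxipl with Usf1 (0.513) and Srebf1 with Mlxipl (0.507), and the lowest that of Nr1h3 with Usf2 (-0.567). This order depended on scaling. After median scaling the highest were Mlxipl with Usf1 (0.652), Nr1h2 with Usf2 (0.632) and Mlxipl with Usf2 (0.606). Insig2 with Usf1 was then at 0.510, and the lowest was Mlx with Nr1h2 (-0.485). Srebf1 and Insig2, whose products oppose each other, were at -0.153 (-0.197 after median scaling), and the dimer partners Mlxipl and Mlx at 0.213 (0.390).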

How the data were processed

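Liver RNA-seq of 18 libraries was analysed, 3 in each of the groups Con, A10, HS, HS+A10, A10-FMT and Con-FMT, as the sample labels assign them. The authors deposited 1 RPKM value per gene and library, with 2 decimals, for 19057 genes. RPKM scales the reads of a gene to its length and to all mapped reads, so values depend on the composition of each library. The submitters' processing notes name Bowtie 0.12.2 and mm10, while the methods of the study name a different aligner, and strand use and the number of reads are not given in the sources used here. The steps between low values put each library's depth at 0.924 to 1.11 of the mean. With the number of reads unknown, no counting interval or detection limit was computed. Dates stood in place of 26 symbols, and 3 symbols were repeated.

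Values were analysed as log2(RPKM + 1) with limma 3.58.1 under R 4.3.3, and annotation and figures were made in Python 3.11.15. For 10204 genes, those whose mean reached 1 RPKM, a model with 1 mean per group was fitted, with moderated variances and a trend on expression. P-values are two-sided and adjusted over all genes by the Benjamini-Hochberg method. The model was tested on simulated data of the same size. The simulated libraries were drawn independently of each other, so this test does not cover the third libraries of Con and A10 or HS replicate 1. Nothing says whether the libraries of a group came from separate mice, so p-values measure the spread between libraries. An exact permutation test of 3 libraries against 3 cannot give a p below 0.1 and was not used for calls.

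The members and the gene lists were chosen with earlier results of these data known, from general knowledge of each pathway. From each list the text may name the called genes, at most the 5 with the largest change in each direction. It also names Srebf2, Scap, Insig1 and Rxra and the 3 genes closest to each member, while values per library of further listed genes were chosen after they were seen. Some genes that this rule names are not reported here. The numbers of the libraries did not pair them. Same-numbered libraries of different groups correlated in their deviations from the group means at -0.126 to 0.262, with a median of 0.0067.

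The settings varied were the pseudocount (0.1), the filter (none, or 5 RPKM), median scaling, quantile normalization, a replicate block, only the groups compared in the fit, no variance trend, the threshold of the study and leaving out each library. Leaving out the third libraries of Con and A10 together, with or without HS replicate 1, was chosen after seeing the data. Positions came from GENCODE M21 and promoters from RefSeq.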

Additional observations from a re-analysis of the deposited data

How the results depend on the processing

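Of the 64 member values (8 members in 8 comparisons), all kept their direction and side of the threshold with a pseudocount of 0.1, without a filter and without the variance trend. The number of members called moved with other choices. With a filter at a mean of 5 RPKM, which tests fewer genes, 2 were called for HS against Con and 2 for HS+A10 against HS, Nr1h3 being added to each. Median scaling gave 3 for A10-FMT against HS, 4 for diet and STZ against regular diet, 2 for Con-FMT against HS and 2 for A10-FMT against Con-FMT. Quantile normalization gave 3 for A10-FMT against Con-FMT and 2 for HS+A10 against HS. With only the groups compared in the fit, and so fewer libraries, 0 were called for Con-FMT against HS (Insig2, adjusted p = 0.057) and 0 for HS+A10 against HS. Without the third libraries of Con and A10, 0 were called for HS+A10 against HS, and without these and HS replicate 1, 0 for HS against Con and 0 for Con-FMT against HS. The threshold of the study, an adjusted p of 0.001 and a log2 change of 1, passed 0 members in each of the comparisons. With 1 library left out in turn, 1 to 2 members were called for HS against Con and 0 to 3 for HS+A10 against HS. The cause of these changes was not tested beyond what each alternative itself removes.

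No called value changed sign, and no value that changed sign was called under the alternative. Median scaling turned 9 and quantile normalization 8 of the 64 values, all uncalled. With 1 library left out, 37 of 1152 values changed sign, all uncalled. Among them, Srebf1 for HS against Con ran from -0.41 to 0.072, Usf1 for HS against Con from -0.14 to 0.010, Usf2 for Con-FMT against HS from -0.0023 to 0.098, and Nr1h2 for diet and STZ against regular diet from -0.025 to 0.027. Without the third libraries of Con and A10, Usf1 for HS against Con was 0.010. A replicate block, for numbers that did not pair the libraries, added Usf2 for A10-FMT against HS (0.19, adjusted p = 0.040), so that 3 members were called there, and changed no other call. Depth in reads is unknown, and 3 libraries per group limit the precision throughout.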
